A study of Mus musculus with 8 samples.

Results

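The loci of Cdx1, Cdx2, Gata4 and Gata6 were examined for methylated DNA in epithelial cells of the mouse small intestine. The members were all merged peak regions that overlapped 4 intervals of the mm9 genome, one around each gene. These were 148095000 to 148140000 on chromosome 5 for Cdx2, 61155000 to 61220000 on chromosome 18 for Cdx1, 63795000 to 63915000 on chromosome 14 for Gata4 and 11030000 to 11110000 on chromosome 18 for Gata6. Peaks of 8 libraries that shared at least 1 bp were merged, and 68 of the 475861 regions in the genome lay in the intervals. Of these, 8 were at Cdx2, 27 at Cdx1, 20 at Gata4 and 13 at Gata6.

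Cdx2 and Cdx1 encode caudal-type homeobox factors. Cdx2 sets intestinal identity in the endoderm and is kept on through adult life, and Cdx1 acts beside it, mostly in crypts. Gata4 and Gata6 encode zinc finger factors that bind GATA motifs. In the mouse gut Gata4 is known for its role in the proximal small intestine and Gata6 for a role along its whole length, in crypts and in enterocytes. CpG-dense start regions of developmental regulators are in general free of DNA methylation in many tissues, while the DNA around them is methylated.

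The libraries came from methyl-CpG-binding domain (MBD) pull-down, in which an MBD protein captures fragments that carry many methylated CpGs. All mice were of a mixed C57BL/6 CD1 strain. Each of 4 groups held 2 biological replicates. Embryonic cells of stages E12.5 and E14.5 (embryonic days) were sorted as EpCAM-positive epithelium, negative for the endothelial marker CD31 and the leukocyte marker CD45. Adult cells were from P60 (postnatal day 60) males that carried the Lgr5EGFP-Cre-ERT allele, in which the promoter of the crypt-base gene Lgr5 drives EGFP. The labels give this allele and the sex for adults only, so age, allele and sex cannot be told apart when adults are set against embryos. Intestinal stem cells (ISC) were the cells with high EGFP. Enterocytes, the absorptive cells of the villus, were sorted on EpCAM without CD31 or CD45, so no enterocyte marker was in the gate. The lists hold DNA and no expression, so cell identity could not be checked against markers. The labels name the small intestine as a whole, so proximal and distal cells share a library. In such pools, fewer cells methylated at a site and less methylation in each cell cannot be told apart.

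Libraries had 31438314 to 55442400 tags and 84990 to 338262 peaks. Both E12.5 libraries were the deepest but had the least enrichment, with 7.46% and 9.84% of their tags in peaks against 23.8% to 38.9% in the other 6. A missing peak means only that a list's own cutoff was not passed. The weakest 1% of peaks in a list ended at 0.344 RPM (reads, here tags, per 1000000 tags of the library) in E14.5 replicate 2, at 0.451 to 0.541 RPM in both E12.5 and both ISC libraries and in E14.5 replicate 1, and at 0.588 and 0.692 RPM in the enterocyte libraries. Few peaks below these levels were listed.

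The Cdx2 promoter shows what CpG-dense DNA at such a start looks like. RefSeq places it at chr5:147307250-147307499 on the minus strand of GRCm38.p6, a build other than that of the peaks, so it was not placed among them. The 250 bases before the start are given 5′ to 3′, with each CpG (the letters CG, which read the same on both strands) in capitals.
Cdx2 promoter: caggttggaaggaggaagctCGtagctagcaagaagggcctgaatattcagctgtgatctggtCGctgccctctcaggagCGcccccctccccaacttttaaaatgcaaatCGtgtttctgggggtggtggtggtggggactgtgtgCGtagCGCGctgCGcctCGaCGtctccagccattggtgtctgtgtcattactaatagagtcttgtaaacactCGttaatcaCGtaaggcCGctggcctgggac
It holds 13 CpGs, where the median of 32851 RefSeq promoter windows of this length was 6. At least 1 CpG was found in 92.1% of those windows, and 31.5% held 13 or more. No entry was at hand for the promoters of Cdx1, Gata4 and Gata6. In the gene order of RefSeq's GRCm38.p6 annotation, Cdx2 lies between the pancreatic and duodenal homeobox gene Pdx1 and Urad, Cdx1 between Slc6a7 and Gm52351, Gata4 between Neil2 and Blk, and Gata6 between Mib1 and Rbbp8. Whether a peak region falls in an exon, an intron or between genes could not be read without an mm9 annotation.

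Long stretches without any peak lay inside 3 of the 4 intervals, in every library. At Cdx2, no library had a peak from 148107398 to 148129871, a stretch of 22.5 kb that took up 49.9% of the interval and spanned its centre. At Gata6 the stretch ran from 11047600 to 11076244 and measured 28.6 kb. At Gata4 it ran from 63853868 to 63876026 and measured 22.2 kb. Stretches at least this long made up 2.81%, 1.81% and 2.88% of the 471314 gaps between neighbouring regions on the autosomes, in the order Cdx2, Gata6 and Gata4, and the median autosomal gap was 2191 bp. Such stretches hold many bases, however: between 20.9% and 26.9% of the autosomal bases outside regions. Each was also picked as the longest of its interval, and the longest gaps of other intervals of such length were not compared. At Cdx1 the longest was 6.30 kb, from 61191450 to 61197751, a length reached by 16.9% of autosomal gaps. Low CpG content also leaves DNA without MBD peaks, and neither this nor mappability was measured here.

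**Figure D1:**
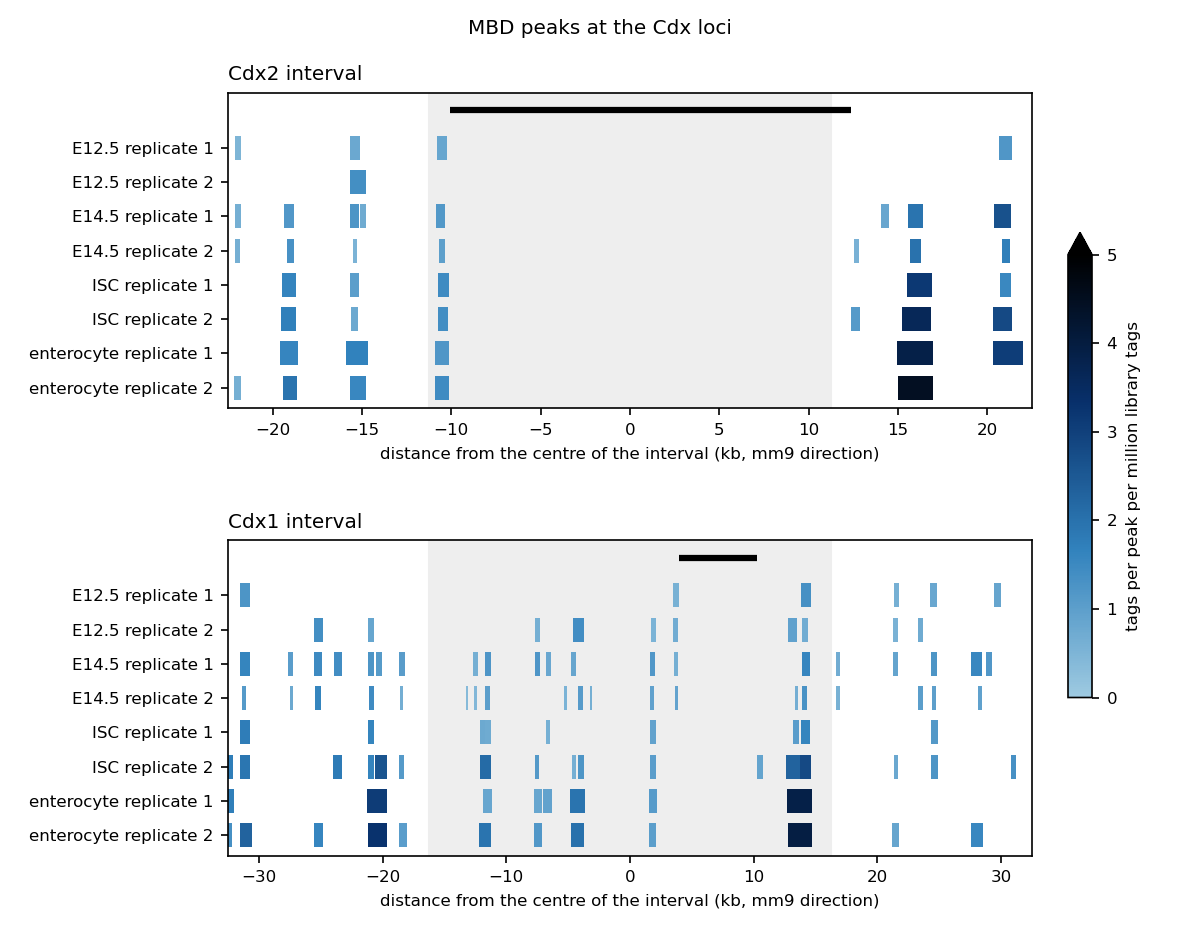
Peaks of each library (rows) along the Cdx2 and Cdx1 intervals, by distance from the interval's centre in kb, with darker bars for higher RPM. Grey marks the central 50% of the interval and the black line the longest stretch without a peak in any library, 22.5 kb at Cdx2 and 6.30 kb at Cdx1.

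Within single libraries the stretches were longer, and groups differed in how far they reached. At Cdx2 the peak-free stretch measured 30.9 and 38.6 kb in the E12.5 libraries and 22.6 to 25.6 kb in the other 6. At Gata6 the E12.5 libraries had 75.5 and 137 kb. E14.5 had 45.4 and 28.9 kb there, ISC 55.5 and 31.8 kb and enterocytes 62.0 and 45.2 kb. These stretches run to the next peak on each side, past the interval's edge in both E12.5 libraries, ISC replicate 1 and enterocyte replicate 1 at Gata6 and in E12.5 replicate 2 at Cdx2. The E12.5 stretches were thus the longest at both loci, in the libraries with the least enrichment. The part of enrichment in these lengths was not tested. At Gata4 the order was another one: the ISC libraries had 24.6 and 27.3 kb, below the 42.2 to 77.3 kb of the other 6, because of small ISC peaks described below.

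**Figure D2:**
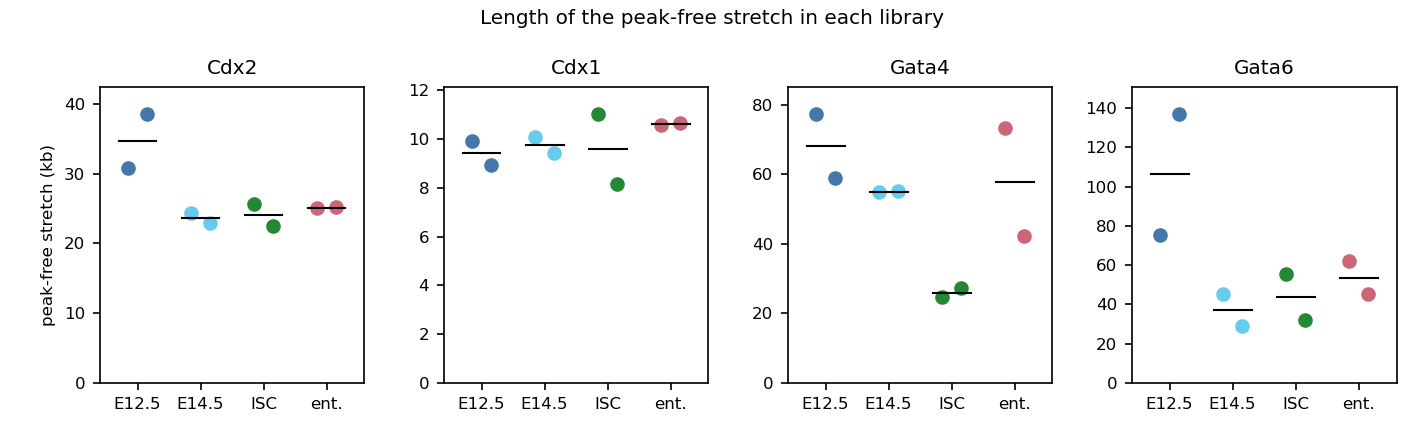
Length in kb of the peak-free stretch around the middle of the shared stretch of each locus, for each library (points), with the mean of the group's 2 libraries (line). The ISC points are the lowest at Gata4, at 24.6 and 27.3 kb, and the E12.5 points the highest at Cdx2 and Gata6.

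The start sites could not be placed in mm9, so the central 50% of each interval (the inner part) was set against the remainder on both sides (the outer part) in place of start and flanks. At Cdx2, peaks covered 2.33% ± 1.13 of the inner part and 14.7% ± 7.24 of the outer part (SD, n = 8 libraries), and the inner part was less covered in 8 of 8 libraries. This largely restates the Cdx2 stretch above, which ran from -10.1 to 12.4 kb of the centre and left 1 region in the inner part. At Gata4 the values were 1.13% ± 1.24 and 7.64% ± 3.16, again with the inner part lower in 8 of 8. Gata6 had the opposite order, 7.24% ± 2.24 inside and 1.49% ± 2.03 outside, with the inner part higher in all 8. The 6 Gata6 regions of the inner part all had their midpoints 6.57 to 19.8 kb to the right of the centre. The order turned with the window: with 3 equal parts in place of the central 50%, the middle one minus the outer ones was -2.01 percentage points. At Cdx1 both parts were within each other's spread (11.5% ± 4.70 and 11.3% ± 5.86). The sign of the Cdx1 difference also changed without E12.5 replicate 2 (-0.22 points), ISC replicate 1 (-0.13) or enterocyte replicate 1 (-1.30).

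Cdx1 had the highest median cover over the 8 libraries, 1.69 times that of the effective genome. Next were Cdx2 (1.21), Gata6 (0.673) and Gata4 (0.666). The order differed in single libraries, as Cdx2 was above Cdx1 in ISC replicate 1 and enterocyte replicate 1 and below both Gata loci in E12.5 replicate 2. The share of bases under peaks at Cdx1 was 1.24 to 3.36 times the library's share over the effective genome, above it in 8 of 8 libraries. At Cdx2 it was 0.777 to 1.70 times that share, above in 7 libraries and below in E12.5 replicate 2. Gata4 (0.441 to 0.983 times) and Gata6 (0.493 to 0.836 times) were below in all 8. These ratios describe 4 intervals and were not tested.

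At Cdx2, the strongest region lay 15.9 kb to the right of the centre, at 148132424 to 148134473. It had no peak in either E12.5 library. It held 1.94 and 2.01 RPM at E14.5, 3.18 and 3.63 RPM in ISC and 3.88 and 4.47 RPM in enterocytes. The 3 groups with peaks did not overlap in RPM, and enterocytes had the most. The peaks differed in width as well, from 650 and 822 bp at E14.5 to 1380 and 1619 bp in ISC and 1966 and 2032 bp in enterocytes. Per kb of peak the order was lost, with 2.36 and 3.09 RPM at E14.5, 2.30 and 2.24 in ISC and 1.91 and 2.27 in enterocytes. With a peak missing in both E12.5 libraries, no tag test was made.

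Of the other 7 Cdx2 regions, 4 lay on the far side of the stretch. At 148097912 to 148098891 the E12.5 lists were again empty, E14.5 had 1.19 and 1.32 RPM, and the 4 adult libraries had 1.59 to 1.97 RPM. The region at 148106601 to 148107397, the left border of the stretch, was called in 7 libraries at 0.851 to 1.46 RPM and not in E12.5 replicate 2. The right border at 148129872 to 148130368 was called in E14.5 replicate 2 and ISC replicate 2 alone, with 20 and 35 tags. A single region, at 148101631 to 148102809, was called in all 8, at 0.545 to 1.97 RPM, and both of these extremes came from E14.5. At 148095337 to 148095753, both E14.5 libraries, E12.5 replicate 1 and enterocyte replicate 2 had a peak and ISC had none.

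Cdx1 had the most regions, 27. Of these, 7 were called in 1 library alone (25.9%) and 1 in all 8 (3.70%), near the shares of all regions of the genome, 28.1% and 5.16%. That one, at 61200150 to 61202192, held 1.36 and 1.64 RPM at E12.5, 1.59 and 1.95 RPM at E14.5, 2.65 and 5.12 RPM in ISC and 3.88 and 3.96 RPM in enterocytes. All 4 adult libraries were above all 4 embryonic ones in RPM. At this scaling by total tags, the median of all regions called in all 8 was also 0.49 (log2) higher in adults. How many other regions separated in this way was not counted. Summed per library, its peaks also covered more bases in adults, at 1221 to 1975 bp against 599 to 1219 bp. Per kb of peak, adults had 1.97 to 2.59 RPM and embryos 1.35 to 2.94 RPM, and the groups overlapped.

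A small Cdx1 region showed the reverse pattern. At 61190943 to 61191449, next to the longest peak-free stretch, all 4 embryonic libraries had a peak, with 33 and 38 tags at E12.5 and 22 and 32 tags at E14.5, and no adult library had one. The levels were low, 0.597 to 0.917 RPM, and overlapped those at which the weakest 1% of enterocyte peaks ended, 0.588 and 0.692 RPM, but lay above those of the ISC lists, 0.524 and 0.541 RPM. The nearest adult peak lay 1289 bp away. This was 1 of 68 regions called in every embryonic and no adult library, against 0.139% of all regions. On the same side of the stretch, the region at 61175277 to 61176317 had no E12.5 peak, 1.22 and 1.03 RPM at E14.5, 1.51 and 2.13 RPM in ISC and 0.854 and 1.94 RPM in enterocytes.

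**Figure D3:**
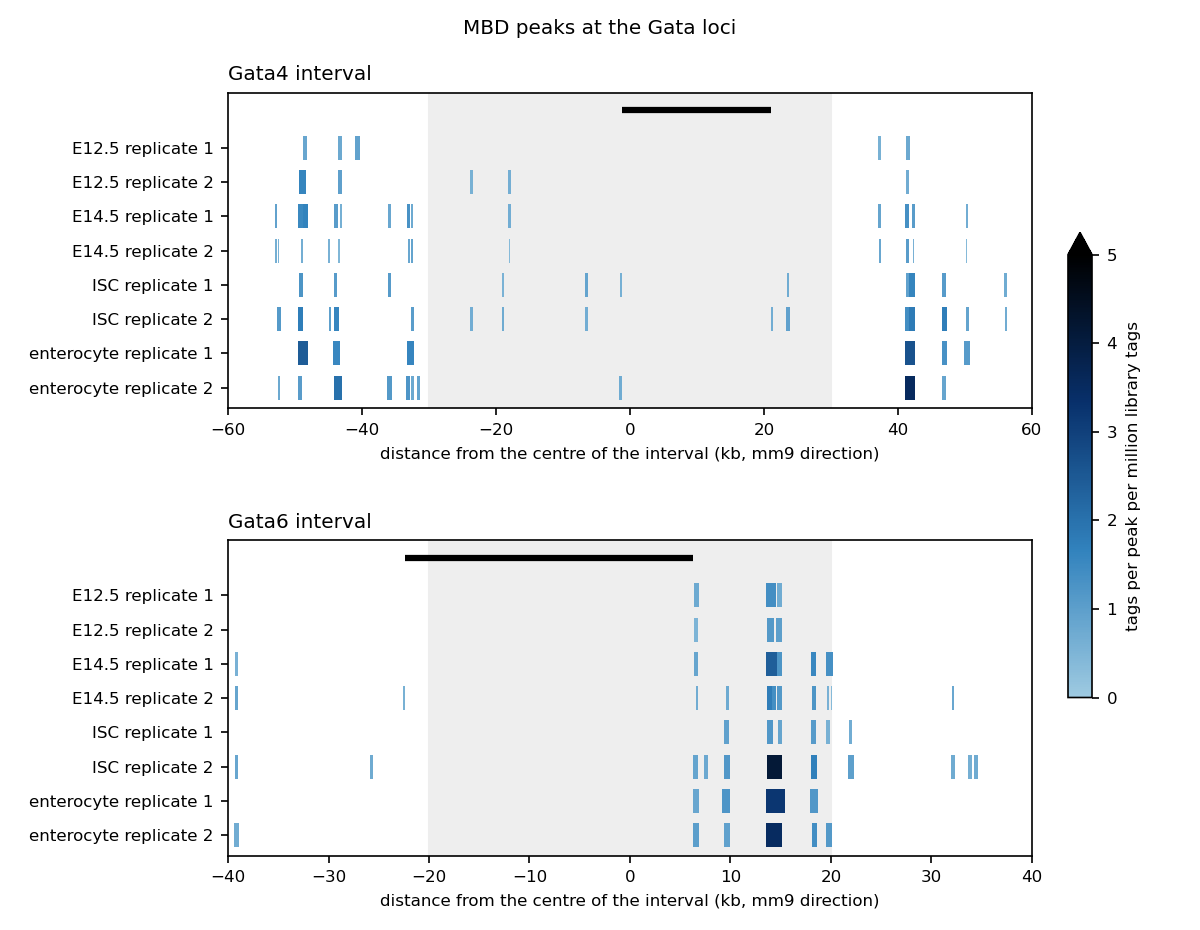
Peaks of each library (rows) along the Gata4 and Gata6 intervals, drawn as for the Cdx loci. The grey part of Gata4 holds small peaks, most of them in the ISC rows. At Gata6 a wide region right of the stretch holds peaks in all 8 rows, split into several in some.

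Gata4 had an adult region and a set of small stem cell regions. The adult region, at 63901519 to 63902385 in the right flank, held 35 and 55 tags in ISC and 57 and 34 tags in enterocytes, or 0.869 to 1.75 RPM, and no embryonic library had a peak in it. The nearest embryonic peak was 2712 bp away. It was the only one of the 68 regions called in every adult and no embryonic library, against 0.402% of all regions. Beside it, the region at 63895979 to 63897604 was called in all 8, with 0.778 and 0.685 RPM at E12.5, 2.43 and 1.63 RPM at E14.5, 2.56 and 3.21 RPM in ISC and 2.65 and 3.53 RPM in enterocytes. The adult libraries were all above the embryonic ones there in RPM, and E14.5 was above E12.5. At this scaling by total tags, the median of all regions called in all 8 also rose. The rise was 0.49 (log2) for adults over embryos and 0.81 for E14.5 over E12.5. Summed per library, its peaks covered 1151 to 1611 bp in adults and 487 to 1001 bp in embryos. In these sums E14.5 replicate 2 (547 bp) did not exceed E12.5 replicate 1 (548 bp). Per kb of peak, adults had 1.65 to 2.28 RPM, within the embryonic range of 1.41 to 2.99 RPM, and both E14.5 libraries were the highest.

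Both ISC libraries, and no other library, called peaks at 4 of the 20 Gata4 regions, and at 5 of the 68 regions of the 4 loci (7.35%), against 0.66% of all regions. These were at 63835886 to 63836229 with 18 and 23 tags, at 63848256 to 63848700 with 29 and 21, at 63878356 to 63878882 with 23 and 30, and at 63910874 to 63911311 with 23 and 22. The region at 63848256 is outside the rule for named regions and was added after its values were seen. In RPM the 4 regions held 0.555 to 0.954. The weakest 1% of enterocyte peaks ended at 0.588 and 0.692 RPM, so equal signal in enterocytes could have been missed. The first 3 of these lie in the inner part, on both sides of the peak-free stretch. The region left of the stretch, at 63853384 to 63853867, was called in ISC replicate 1 and enterocyte replicate 2, and the one right of it, at 63876027 to 63876391, in ISC replicate 2 alone, with 21 tags.

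The remaining Gata4 regions were mostly in the left flank. At 63821572 to 63822754, E14.5 held 2.05 and 1.69 RPM, ISC replicate 2 held 1.05 and enterocytes held 1.59 and 1.99, with no peak at E12.5 or in ISC replicate 1. The regions at 63805391 to 63806980 and 63810690 to 63812049 were called in all 8 libraries, at 0.659 to 3.15 RPM and 0.459 to 2.02 RPM. In both, E14.5 replicate 1 was far above E14.5 replicate 2, so the spread within a stage was as wide as that over all groups in the first. At 63836802 to 63837275 and 63892021 to 63892488 both E14.5 libraries and 1 E12.5 library had a peak and no adult library did, at 0.373 to 0.868 RPM.

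The strongest Gata6 region lay right of the stretch. At 11083524 to 11085420 it was called in all 8 libraries, with 2.10 and 2.15 RPM at E12.5, 3.65 and 4.30 RPM at E14.5, 2.04 and 4.14 RPM in ISC and 3.21 and 3.50 RPM in enterocytes. ISC replicate 1 lay at the E12.5 level and ISC replicate 2 near E14.5, so the 2 stem cell libraries spanned almost the whole range. The neighbouring region at 11087940 to 11088752 had no E12.5 peak and held 1.08 to 1.72 RPM in the other 6 libraries, whose groups overlapped. The border of the stretch at 11076245 to 11076885 was called in every library but ISC replicate 1, at 0.523 to 1.02 RPM, and the other border at 11047368 to 11047599 in E14.5 replicate 2 alone. At 11091740 to 11092262 both ISC libraries had a peak, with 22 and 31 tags, and no other library did. Of the 13 Gata6 regions, 5 were called in 1 library alone (38.5%, against 28.1% of all regions). Of these 5, 4 were in ISC replicate 2, the library with the largest share of tags in peaks (38.9%). E14.5 replicate 1, with 37.7% of its tags in peaks, had 0. The part of enrichment in these counts was not tested.

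**Figure D4:**
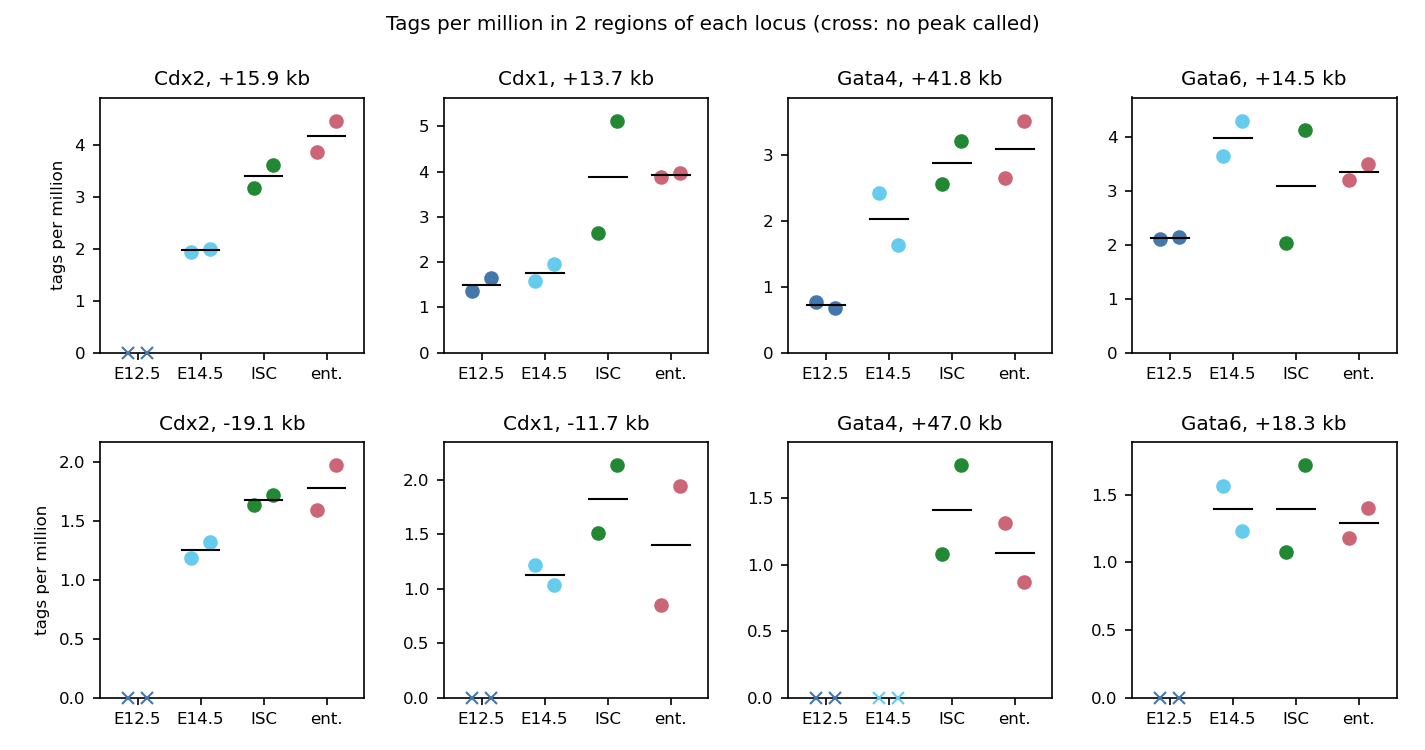
RPM in 2 regions of each locus for each library (points), with the mean where both replicates have a peak (line) and a cross at 0 where no peak was called; titles give the distance from the interval's centre. At Cdx2 +15.9 kb the points go from 1.94 and 2.01 at E14.5 to 3.88 and 4.47 in enterocytes (ent.).

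Both embryonic stages were compared first. At E14.5 but not E12.5 (a peak in 2 of 2 against 0 of 2 libraries), 14 of the 68 regions were called (20.6%), 2 at Cdx2, 6 at Cdx1, 3 at Gata4 and 3 at Gata6. Over all regions of the genome the share was 23.9%, so the 4 loci were near the background. The reverse was found at 0 of 68, against 0.276%. Stage and enrichment cannot be told apart here, since both E12.5 libraries had the smallest shares of tags in peaks. Leaving out a library can only raise these counts: without E14.5 replicate 1 the first was 23 and the second 1, and the second was 1 without E12.5 replicate 1 and 2 without E12.5 replicate 2. With lists of equal length, the 84990 peaks of highest score in each, 2 regions were called at E14.5 only, at 61175277 in Cdx1 and 11088022 in Gata6, and 2 at E12.5 only.

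ISC were next set against E14.5, the adult stem cell against the later embryonic stage. In ISC but not E14.5, 6 of 68 regions were called (8.82%, against 1.91% of all regions), 5 at Gata4 and 1 at Gata6. The 5 at Gata4 were the adult region at 63901519 and the 4 small regions above. With equal lists the count was 1, the adult region. The reverse was found at 9 of 68 (13.2%, against 6.69%), with 6 at Cdx1, 2 at Gata4, 1 at Cdx2 and none at Gata6, and at 0 with equal lists. The 3 highest-ranked at Cdx1 were at 61161923 to 61162699, 61159849 to 61160272 and 61190943 to 61191449, with 0.636 to 1.61 RPM at E14.5. Without ISC replicate 1 the 6 became 14. The 9 became 14 without E14.5 replicate 1 and 16 without ISC replicate 2.

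Within the adult, ISC were set against enterocytes. In ISC but not enterocytes, 6 of 68 regions were called (8.82%, against 3.85% of all regions). These were the 4 small Gata4 regions, the Gata6 region at 11091740 and the Cdx1 region at 61211754 to 61212377, which also had peaks in both E14.5 libraries and E12.5 replicate 1. The reverse was found at 0 of 68, against 1.28%. With equal lists, and with the upper 50% of each list by score, the 6 became 0. Without ISC replicate 1 the 6 became 18. The 0 became 5 without ISC replicate 2 and 4 without enterocyte replicate 1.

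The 4 adult libraries set against the 4 embryonic ones gave the 2 regions already described, at Gata4 (63901519, adult) and at Cdx1 (61190943, embryonic). Both counts of 1 became 0 with equal lists and with the upper 50% of each list. The adult count was 2 without E14.5 replicate 2, and the embryonic count was 2 without either E12.5 library. When E12.5 was left out, a choice made after the data were seen, 1 region was adult (1.47%, against 0.477% of all regions) and 6 were embryonic (8.82%, against 4.47%).

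Summed over a whole locus, the tags under peaks did not separate adult from embryonic libraries in an exact two-sided permutation test, whose smallest p is 0.029 and which takes the libraries of each side as exchangeable. At Cdx2 the sums were 10.4 ± 1.25 RPM in adults and 5.73 ± 4.11 RPM in embryos (SD, n = 4 each, exact p = 0.0857). At Gata4 they were 12.7 ± 2.91 and 7.35 ± 4.28 RPM (exact p = 0.114). Cdx1 had 18.3 ± 7.33 and 13.4 ± 7.91 RPM (exact p = 0.400), and Gata6 had 8.46 ± 3.56 and 5.93 ± 3.76 RPM (exact p = 0.371). Without E14.5 replicate 1, the Cdx2 and Gata4 tests reached exact p = 0.029, the smallest possible, with differences of 6.27 and 7.33 RPM. At each locus both E12.5 sums were below both E14.5 sums. Against E14.5 alone, the Cdx2 difference was 1.35 RPM (exact p = 0.4) and the Gata4 difference 2.22 RPM (exact p = 0.533), and the Cdx1 and Gata6 differences turned negative, at -1.63 and -0.63 RPM.

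The covered share of each locus was also compared between groups. Cdx2 cover was 3.50% ± 2.15 for E12.5, 7.91% ± 3.18 for E14.5, 9.85% ± 1.62 for ISC and 12.8% ± 2.98 for enterocytes (SD, n = 2 each). The E12.5 libraries lay below both E14.5 libraries, while E14.5 overlapped ISC and ISC overlapped enterocytes. In the same group order, Gata4 had 2.45% ± 0.0849, 3.74% ± 1.83, 5.59% ± 1.60 and 5.77% ± 0.0395. Gata6 had 2.34% ± 0.316, 4.27% ± 0.149, 5.45% ± 2.79 and 5.41% ± 0.211. At Cdx1, E14.5 (12.3% ± 4.60), ISC (11.5% ± 6.01) and enterocytes (14.7% ± 3.26) overlapped, and E12.5 had 7.11% ± 2.06. Per kb of peak, the 4 loci held 1.36 to 1.58 RPM in the E12.5 libraries and 1.53 to 3.06 RPM in the others. With 2 against 2 libraries no exact test falls below p = 0.33.

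**Figure D5:**
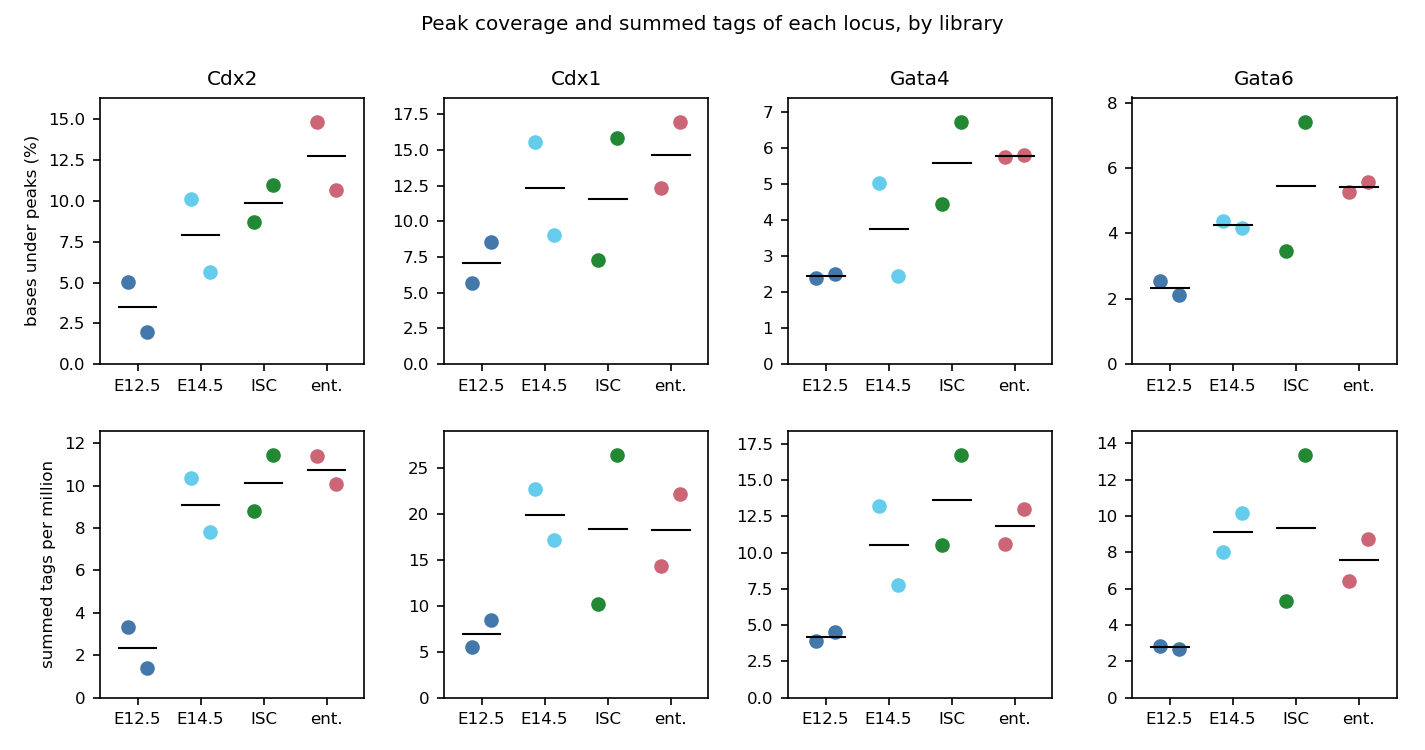
Bases of each interval under peaks in percent (top) and RPM summed over its peaks (bottom) for each library (points), with group means (lines). E12.5 has the lowest group mean in all 8 panels, and the 2 ISC libraries stand far apart at Cdx1 and Gata6.

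Where all 8 lists had a peak, the tags under each library's own peaks could be tested, without correction for the bases covered. This held for 6 of the 68 regions, those named above as called in all 8, and edgeR's quasi-likelihood test was fitted to all 24563 such regions of the genome. None of the 6 passed an adjusted p of 0.05 in any of the 4 comparisons. DESeq2 called none of those to which it gave an adjusted p. For E14.5 with E12.5 it gave one only for the Gata6 region at 11083524 and the Cdx1 region at 61200150. For adults with embryos it gave none for the Gata4 region at 63810690 and the Cdx2 region at 148101631. Regions without an adjusted p could not be called by DESeq2. Of all regions tested, 0.285% passed as higher and 0.114% as lower at E14.5 than at E12.5, 0.199% as higher and 0.0529% as lower in adults than in embryos, and 0% in the other comparisons. At an unadjusted p under 0.05 there was 1 of 6 for E14.5 with E12.5, 1 for ISC with E14.5, 0 for enterocytes with ISC and 2 for adults with embryos. Over all regions tested these shares were 16.2%, 6.15%, 3.42% and 11.9%.

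The closest to a call was the Gata4 region at 63895979. Its log2 fold change of adults over embryos was 0.81 ± 0.19 (SE; edgeR adjusted p = 0.106), and its tags were higher in 4 of 4 adult than in all embryonic libraries by RPM. The Cdx1 region at 61200150 had a log2 fold change of 0.74 ± 0.22 (edgeR adjusted p = 0.184), and of 1.02 ± 0.31 for ISC over E14.5 (edgeR adjusted p = 0.561). Its log2 fold change for E14.5 over E12.5 was -0.57 ± 0.32 (edgeR adjusted p = 0.4). Per kb of peak, ISC had 2.17 and 2.59 RPM there, below the 2.66 and 2.94 RPM of E14.5. The Gata6 region at 11083524 had -0.37 ± 0.21 for adults over embryos (edgeR adjusted p = 0.523), the other sign. These fold changes use TMM scaling, which sets the bulk of shared regions equal between libraries. Scaled by total tags alone, the median of all regions moved by 0.82 (log2) for E14.5 over E12.5 and by 0.49 for adults over embryos. The Gata4 region then passed in both comparisons (log2 fold change 1.47, edgeR adjusted p = 0.0147, and 1.29, adjusted p = 0.0131) and the Cdx1 region passed for adults over embryos (1.26, adjusted p = 0.0155).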

How the data were processed

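MBD sequencing libraries of 4 groups, 2 replicates each, were analysed from 1 deposited peak list per library. Per the file headers, MACS 1.4.2 called peaks in each library alone, with no control library, at a p cutoff of 1e-05. Tag size was set to 180 bp, band width to 200 bp and the window for regional background to 10000 bp. Without an input library, copy number and repeats can give peaks. The build was mm9, and the tools named beside MACS were Bowtie 1.1.2, SAMtools 1.2 and bcl2fastq 1.8.4, per the submitters' processing notes. The authors deposited, for each peak, a whole-number tag count. The score (the negative log10 of the p-value times 10) and the fold over local background are the authors' values per the file headers. Only the score was used, to rank peaks within a list.

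Peaks were merged at 1 bp overlap. Tags of a region were divided by the library's total tags and multiplied by 1000000 (RPM). A region counted for a group when every library of that side and none of the other had a peak. Peaks differ in width between libraries, so RPM follows the width called. Tags of the 24563 regions called in all 8 libraries were tested with edgeR 4.0.16 (TMM, quasi-likelihood, Benjamini-Hochberg over these regions), with DESeq2 1.42.0 as an alternative, under R 4.3.3. The counting and the test were tested on simulated data. Regions named are, per locus, the strongest, up to 3 per comparison and direction by score percentile, those called in all 8, and the borders of the longest peak-free stretch. The members and lists were chosen with earlier results of these data known. No mm9 annotation was used, so genes, exons and start sites were not placed and other genes of the pathway were not analysed here. Replicate numbers did not pair the samples.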

Additional observations from a re-analysis of the deposited data

Results flagged for a closer look

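One value stood apart from the others of its side. In the Gata4 interval, peaks covered 5.03% of the bases in E14.5 replicate 1, while the other 3 embryonic libraries, of both stages, lay between 2.39% and 2.51%. This library's gap to the next exceeded the 95% critical value of Dixon's test for 4 values. About 1 in 20 such groups is expected to do so by chance, and coverage and summed tags of all 4 loci were tested in adults and embryos. E14.5 replicate 1 also had 37.7% of its tags in peaks, against 29.9% in E14.5 replicate 2, and its part in the Gata4 value was not tested.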

How the results depend on the processing

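Lists of equal length gave 2 regions for E14.5 against E12.5 and 2 for the reverse, 1 in ISC and not E14.5 and 0 the reverse, 0 in ISC and not enterocytes, 0 in adults and 0 in embryos alone. With the upper 50% of each list, 2 were called in ISC and not E14.5 and 6 the reverse. In ISC and not enterocytes there were 0, in adults 0 and in embryos alone 0. The 2 were at 63901519 and 63810690 in Gata4, and full lists called the second in all 8 libraries. Shorter lists can thus count regions other than those of the full lists. Peaks merged within 500 bp kept all counts within 1.5 times. Without E12.5, added after seeing the data, 6 were embryonic. Leaving out single libraries gave 19 to 23 (E14.5, not E12.5) and 0 to 2 (reverse), 6 to 14 (ISC, not E14.5) and 10 to 16 (reverse), 6 to 18 (ISC, not enterocytes) and 0 to 5 (reverse), 1 to 2 in adults and 1 to 2 in embryos alone. This rule is looser with fewer libraries by construction.

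Inner minus outer cover at Cdx2 was -12.3 points, and -5.48 with equal lists. With the middle of 3 equal parts it was -4.45 at Cdx1 and -2.01 at Gata6. Leaving out single libraries gave -13.5 to -10.9 at Cdx2, -1.30 to 1.68 at Cdx1, -7.16 to -5.80 at Gata4 and 5.07 to 6.2 at Gata6. In the same way, the adult minus embryonic sums ranged from 3.26 to 6.27 RPM at Cdx2, 2.13 to 7.93 at Cdx1, 4.03 to 7.33 at Gata4 and 0.899 to 3.95 at Gata6. Per 1000000 tags in peaks they were 8.51 at Cdx2, -13.6 at Cdx1, 1.36 at Gata4 and -3.17 at Gata6. With E14.5 alone they were 1.35 at Cdx2, -1.63 at Cdx1, 2.22 at Gata4 and -0.63 at Gata6. The cause was not tested.

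Of the 6 regions tested for tags, scaling by total tags called 1 (the stages) and 2 (adults against embryos). DESeq2, equal lists and a filter of 30 tags (each of the last 2 kept 3 of the 6), and leaving out single libraries (0 to 0) called none. DESeq2 gave some of the 6 no adjusted p for the stages and for adults against embryos, so it could not call them there. With the replicate number as a block, 0 of the 6 were called in each comparison. Same-numbered libraries of different groups had deviations that correlated between -0.02 and 0.07, so no pairing was taken. Low depth in peaks at E12.5 limits what its lists can show.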
